A study of Mus musculus with 12 samples.

Results

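Retinal ganglion cell (RGC) identity genes were followed in bulk RNA-seq of mouse retina. The set holds 10 genes, *Pou4f1*, *Pou4f2*, *Pou4f3*, *Isl1*, *Isl2*, *Eomes*, *Tbr1*, *Rbpms*, *Sncg* and *Thy1*, matched by exact name among the 55487 genes of the deposited gene table, and all 10 names were found once. A total of 12 libraries in 6 groups of 2 were compared. They came from C57BL/6J retinas (WT), from C57BL/6J retinas infected with pU6-shPax6-GFP AAV2.7m8 (2 µL, shPax6) and from retinas of Jnk3-/- mice (JNK3 KO), each injected intravitreally with 1 µL of PBS or of 40 mM NMDA (40 nmol) in PBS. The mice were adult, 2 months old at AAV delivery, and the route of AAV delivery is given as intravitreal in the labels and as subretinal in the study's methods. The shRNA was driven by the U6 promoter, which does not restrict it to RGCs, and the JNK3 KO mice carry the deletion in every cell. No library from retinas given the scrambled control vector was analysed here, so AAV infection and the lowering of *Pax6* cannot be told apart. RNA for a library came from more than 3 retinas per the study's methods. The labels speak of independent experiments but tie no library to one, so p-values measure the spread between these pools, which may be technical.

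RGCs are the output neurons of the retina, and their axons form the optic nerve. They bear glutamate receptors of the NMDA class, and NMDA put into the eye kills many of them. The POU4F (Brn3) and ISL factors act below the early determinant *Atoh7* to build and keep RGC fate, the T-box factors *Eomes* and *Tbr1* mark RGC subtypes, and *Rbpms*, *Sncg* and *Thy1* are used as markers of RGCs at large. *Isl1* is also made by ON bipolar and starburst amacrine cells, *Eomes* and *Thy1* by lymphocytes, and *Rbpms* by cells of the vessel wall, so none of these reads RGCs alone in whole retina. In such bulk libraries fewer RGCs and less RNA per RGC cannot be told apart.

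Levels were deposited as FPKM, fragments scaled to the length of the transcript and to the fragments mapped in the library. *Pax6*, the shRNA target, measured 173.48 and 177.3 FPKM in WT PBS against 94.56 and 92.84 FPKM in shPax6 PBS. After NMDA it measured 55.42 and 53.81 FPKM in WT against 67.52 and 58.73 FPKM in shPax6. *Mapk10*, which encodes JNK3, measured 42.79 and 50.72 FPKM in WT PBS against 9.47 and 8.75 FPKM in JNK3 KO PBS, lower but not at 0 in the knockout. It was at 8.98 and 6.0 FPKM in WT NMDA, as low as in JNK3 KO. All 8 rod genes checked as markers of whole retina were above 0 in every group, with summed levels of 21327 to 36979 FPKM. The WT NMDA libraries stood apart in their totals, with FPKM sums of 805627 and 820180 against 541210 to 576922 in the other 10 libraries. They also stood apart in a dependence on gene length, which is described with *Sncg* and given beside only some of the results. Read counts cannot be recovered from these files, and in single-transcript genes of about 1 kb the commonest value above 0 was 0.04 to 0.06 FPKM, so values below about 0.1 FPKM rest on very few fragments.

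Differences are given as log2 fold changes of FPKM + 0.1 with standard errors (SE) from limma, fitted over all 16471 genes whose mean exceeded 1 FPKM in at least 1 group, and a difference counts as called where its Benjamini-Hochberg adjusted p is under 0.05. Where a count is followed in brackets by shares of all genes under another scaling, the count itself is from this fit. Of the 10 genes, 9 passed the 1 FPKM filter. *Tbr1*, at a group mean of at most 0.595 FPKM, did not. *Pou4f2*, *Pou4f3*, *Isl2* and *Eomes* exceeded 1 FPKM only in the groups where they were high, so counts over the 9 tested genes describe the genes and lend no support of their own.

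To show how the start regions of these genes compare, a POU4F factor, a LIM-homeodomain factor, a T-box factor and an abundant RGC marker are printed with the 250 bases before their RefSeq start on GRCm38.p6. They are chr14:104468000-104468249 on the minus strand for *Pou4f1*, chr13:116309689-116309938 on the minus strand for *Isl1*, chr9:118477939-118478188 on the plus strand for *Eomes* and chr14:34374670-34374919 on the minus strand for *Sncg*. Capitals mark matches on either strand to ATTAAT (the core of POU4 sites) or CAGCTG (an E-box, the kind of site bHLH factors such as ATOH7 bind).
Pou4f1: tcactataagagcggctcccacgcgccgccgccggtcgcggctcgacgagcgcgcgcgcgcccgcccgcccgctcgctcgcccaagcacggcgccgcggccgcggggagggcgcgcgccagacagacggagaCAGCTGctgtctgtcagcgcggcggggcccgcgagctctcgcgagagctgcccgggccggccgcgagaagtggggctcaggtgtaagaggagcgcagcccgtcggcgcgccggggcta
Isl1: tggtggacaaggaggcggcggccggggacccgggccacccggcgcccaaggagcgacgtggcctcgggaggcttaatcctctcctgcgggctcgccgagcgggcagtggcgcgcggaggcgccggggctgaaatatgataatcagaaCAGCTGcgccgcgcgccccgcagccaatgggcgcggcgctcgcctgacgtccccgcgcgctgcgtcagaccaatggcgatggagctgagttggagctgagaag
Eomes: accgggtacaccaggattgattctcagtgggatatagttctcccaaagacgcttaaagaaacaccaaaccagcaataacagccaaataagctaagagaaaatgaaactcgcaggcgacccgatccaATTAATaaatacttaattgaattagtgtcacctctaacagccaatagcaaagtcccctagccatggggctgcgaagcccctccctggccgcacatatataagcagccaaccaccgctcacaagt
Sncg: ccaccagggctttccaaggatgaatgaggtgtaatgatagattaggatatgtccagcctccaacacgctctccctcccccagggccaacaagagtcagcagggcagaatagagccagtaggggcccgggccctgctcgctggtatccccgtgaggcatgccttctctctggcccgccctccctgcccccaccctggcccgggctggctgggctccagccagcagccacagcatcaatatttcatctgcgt
Of the 10 genes, 7 had an entry among 32851 RefSeq promoters. CAGCTG occurred once in the *Pou4f1* and once in the *Isl1* window and in 13% of all windows of this length, and ATTAAT once in the *Eomes* and once in the *Tbr1* window and in 4.39% of all. GGTGTGA (a T-box half-site, in 3.33%), TGANTCA (AP-1, in 6.75%) and TATAAA (in 12.4%) were searched as well and had no match in the 7 windows. No match overlapped another. *Pou4f1* held 47 CpG and *Isl1* 33 CpG, more than 99.8% and 96.0% of all windows, whereas *Eomes* held 8 and *Sncg* 7 against a median of 6. GC content differed widely between the windows, from 45.2% GC in *Tbr1* to 78.0% in *Pou4f1*.

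In WT PBS retinas the 10 genes spanned from 0.595 ± 0.106 FPKM for *Tbr1* to 143 ± 2.02 FPKM for *Thy1* (mean ± SD, n = 2). FPKM are per length, so levels can be set side by side. *Thy1* and *Sncg* (136 ± 11.9 FPKM) headed the order and overlapped between libraries, followed by *Isl1* (33.2 ± 1.17), *Rbpms* (16.9 ± 0.587) and *Pou4f1* (10.6 ± 0.707). *Eomes* (3.28 ± 0.283), *Isl2* (3.02 ± 0.424) and *Pou4f2* (2.89 ± 0.255) formed a group in which each overlapped its neighbour, and *Pou4f3* (2.11 ± 0.608) lay just under them. JNK3 KO PBS retinas kept the same order of 10 genes. In shPax6 NMDA retinas *Isl1*, at 21.9 ± 0.636 FPKM, had become the highest of the 10, above *Thy1* at 19.1 ± 1.15, and the 6 lowest, *Pou4f1*, *Isl2*, *Tbr1*, *Pou4f2*, *Pou4f3* and *Eomes*, each overlapped the next in order.

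**Figure D1:**
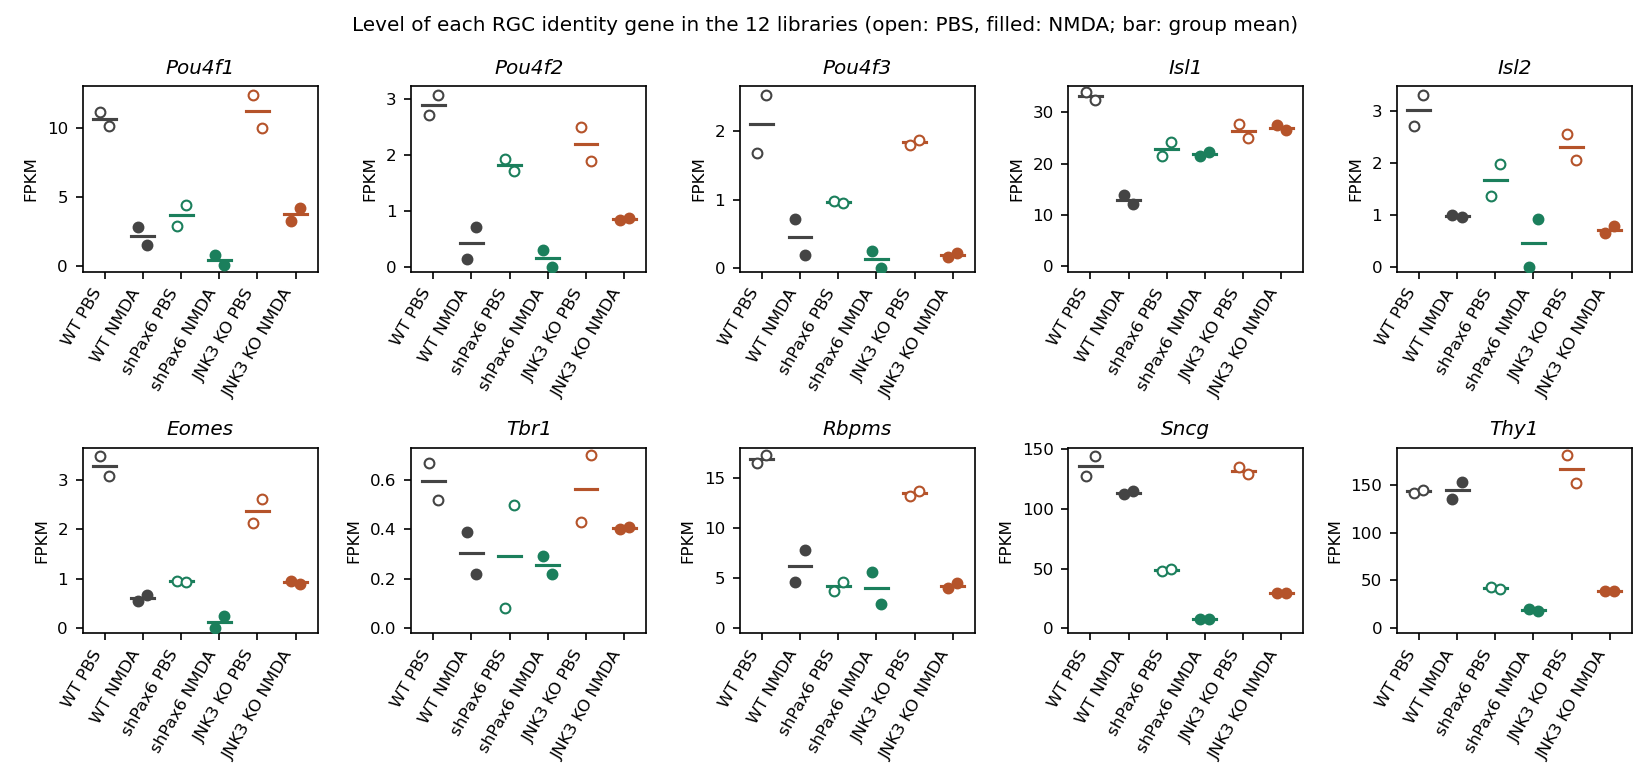
FPKM (linear axes) of the 10 RGC identity genes in the 12 libraries, 1 panel a gene; points are libraries, open for PBS and filled for NMDA, and bars are group means of 2. Most genes are highest in WT PBS and JNK3 KO PBS and lowest in shPax6 NMDA; *Isl1* is lowest in WT NMDA, and *Thy1* is level between WT PBS and WT NMDA.

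The question of the NMDA comparison is which RGC genes fell after excitotoxic injury, and whether lowering *Pax6* or removing JNK3 changed that. In WT retinas 7 of the 9 tested genes fell and none rose, where 33.8% of all tested genes fell and 26% rose. Rescaling every library to TPM moved these background shares to 50.2% and 13.6%, and *Thy1* was then called lower too. In shPax6 retinas 6 fell and none rose, against 11% and 19.1% of all genes (16.6% and 13.1% after quantile normalization). In JNK3 KO retinas 4 fell and none rose, against 6.1% and 4.33%. Leaving out 1 library moved the WT count to 4 (without WT PBS replicate 2) and the JNK3 KO count to 7 (without either shPax6 NMDA library) or 2 (without any 1 JNK3 KO library). Which genes fell differed between the backgrounds. *Pou4f3* and *Sncg* were called in all 3, *Isl1* only in WT, and *Thy1* in shPax6 and JNK3 KO but not in WT. Whether a response itself differed was tested as an interaction. Of the 9 genes, 1 responded more negatively and 2 less negatively in WT than in shPax6, against 31.4% and 18.3% of all genes (47.2% and 9.20% on TPM). With TPM, 2 of the 9 responded more negatively in WT than in shPax6. For WT against JNK3 KO the counts on FPKM were again 1 and 2, against 27.9% and 23.5% (42.3% and 12.8% on TPM). Between shPax6 and JNK3 KO they were 1 and 1, against 5.62% and 12.1% (8.34% and 8.84% after 75th-percentile scaling). Without shPax6 NMDA replicate 2 the shPax6 interactions rose to 2 and 4 against WT and 3 and 2 against JNK3 KO, and without shPax6 NMDA replicate 1 the latter to 3 and 1. The more negative WT responses were 2 without WT NMDA replicate 2 (against shPax6) and without either shPax6 NMDA library (against JNK3 KO). These comparisons share their PBS and NMDA libraries and are not independent of each other.

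**Figure D2:**
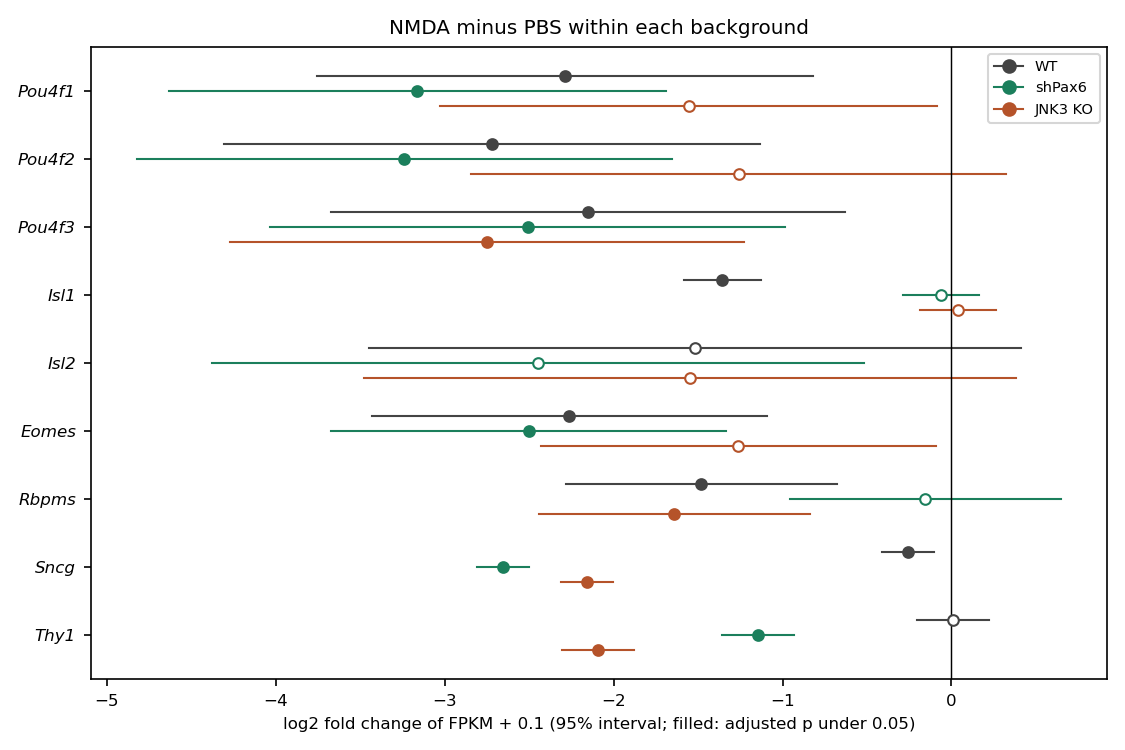
Log2 fold change of FPKM + 0.1, NMDA minus PBS, of the 9 tested genes in WT, shPax6 and JNK3 KO retinas; points are limma estimates, lines 95% intervals, and filled points have an adjusted p under 0.05. The 3 POU4F genes, *Isl2* and *Eomes* lie left of 0 in each background with wide intervals, while *Isl1*, *Sncg* and *Thy1* have narrow intervals that do not overlap between WT and the other backgrounds.

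The POU4F factors are homeodomain proteins of RGCs, with *Pou4f2* acting first in RGC differentiation and *Pou4f1* marking most mature RGCs under the antibody name Brn3a. *Pou4f1* (chr14:104461676-104467999, minus strand) measured 11.14 and 10.14 FPKM in WT PBS against 2.83 and 1.55 FPKM in WT NMDA. The NMDA libraries lay well below the PBS libraries, a log2 fold change of -2.29 (SE 0.65, adjusted p = 0.013). The call of *Pou4f1* was lost without WT PBS replicate 1 or 2 or WT NMDA replicate 2 (adjusted p = 0.0697, 0.0566 and 0.094). In shPax6 it went from 2.93 and 4.47 FPKM to 0.86 and 0.08 FPKM, -3.16 on the log2 scale (SE 0.65, adjusted p = 0.00595), and the last value is near the level of a few fragments. With the spread taken from the shPax6 libraries only, the adjusted p of *Pou4f1* was 0.171. In JNK3 KO it went from 12.41 and 10 to 3.29 and 4.21 FPKM. These groups did not overlap either, but the log2 fold change of -1.56 had an adjusted p of 0.181. The spread of a gene is estimated over all 6 groups, and without shPax6 NMDA replicate 1 or 2 the adjusted p for *Pou4f1* in JNK3 KO was 0.0285 or 0.0277. The interval of the difference between the WT and JNK3 KO responses ran from -2.81 to 1.35, so neither a larger nor a smaller fall in WT could be told at this precision.

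*Pou4f1* has a second annotated transcript, Pou4f1-202, a processed transcript of 799 bases that lies whole within the 3′ UTR of the coding Pou4f1-201 (chr14:104461676-104465728). Its share of the *Pou4f1* FPKM went from 51.2% in WT PBS to 31.3% in WT NMDA, from 56.8% to 91.5% in shPax6 and from 64.6% to 69.96% in JNK3 KO. The coding transcript alone was listed at 5.21 and 5.18 FPKM in WT PBS, 1.68 and 1.33 in WT NMDA, 1.41 and 1.79 in shPax6 PBS, and 0 and 0.08 in shPax6 NMDA. In JNK3 KO it was at 4.48 and 3.46 FPKM after PBS and at 1.05 and 1.2 FPKM after NMDA. With coding transcripts summed per gene, a setting added after these values were seen, *Pou4f1* fell in all 3 backgrounds, with log2 fold changes of -1.73 in WT, -3.65 in shPax6 and -1.72 in JNK3 KO (adjusted p = 0.00123, 4.58e-05 and 0.0102). On this scale the shPax6 response was larger than that of WT by 1.92 (adjusted p = 0.0068) and than that of JNK3 KO, with a difference of -1.93 (adjusted p = 0.0204), whereas on the gene level neither difference was called (adjusted p = 0.456 and 0.27). Pou4f1-201 is the one coding transcript of the gene, and in the fit over single transcripts the same values called the WT and shPax6 falls (adjusted p = 0.0169 and 0.0022) but not the JNK3 KO fall (0.145), nor the differences of shPax6 from WT (0.0586) and from JNK3 KO (0.167). These calls thus depend on which features enter the fit. Both shPax6 NMDA values are at or near 0, so the size of that fall depends on the pseudocount.

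*Pou4f2* (chr8:78433010-78436645, minus strand) had 2.71 and 3.07 FPKM in WT PBS and 0.15 and 0.72 FPKM in WT NMDA, a log2 fold change of -2.72 (SE 0.70, adjusted p = 0.00794) that became -1.86 (adjusted p = 0.0657) without WT NMDA replicate 1. In shPax6 it fell from 1.92 and 1.71 FPKM to 0.31 FPKM in 1 library and was listed at 0 in the other (log2 fold change -3.24, adjusted p = 0.00758). In JNK3 KO the values were 2.5 and 1.89 FPKM after PBS and 0.83 and 0.87 FPKM after NMDA, which do not overlap, with a log2 fold change of -1.26 and an adjusted p of 0.318. *Pou4f3*, which lies on chromosome 18 and is best known from hair cells as well as RGCs, was called lower in all 3 backgrounds. Its FPKM were 1.68 and 2.54 in WT PBS against 0.72 and 0.19 in WT NMDA (log2 fold change -2.15, adjusted p = 0.0205). They were 0.98 and 0.95 against 0.25 and 0 in shPax6 (-2.51, adjusted p = 0.021), and 1.8 and 1.88 against 0.16 and 0.22 in JNK3 KO (-2.75, adjusted p = 0.0332). Every NMDA library of *Pou4f3* was thus below every PBS library of its background. The JNK3 KO call of this gene was lost in each fit that left out a JNK3 KO or a WT PBS library, with adjusted p of 0.0581 to 0.17. Its WT call was lost without WT PBS replicate 2 or WT NMDA replicate 2 (adjusted p = 0.11 and 0.137), and its shPax6 call without shPax6 PBS replicate 1 or 2 or shPax6 NMDA replicate 2 (adjusted p = 0.0767, 0.0664 and 0.081).

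*Isl1* and *Isl2* encode LIM-homeodomain factors, and ISL1 works together with POU4F2 in RGC differentiation. *Isl1* (chr13:116298281-116309689, minus strand) went from 34.06 and 32.4 FPKM to 13.82 and 12.06 FPKM in WT retinas, with a log2 fold change of -1.36 (SE 0.10, adjusted p = 3.47e-06). It was 21.51 and 24.29 FPKM in shPax6 PBS and 21.43 and 22.33 FPKM in shPax6 NMDA, and 27.77 and 24.93 FPKM in JNK3 KO PBS and 27.48 and 26.62 FPKM in JNK3 KO NMDA. In both of these backgrounds the PBS and NMDA libraries overlapped, with log2 fold changes of -0.06 (95% interval -0.29 to 0.16) and 0.04 (-0.19 to 0.27). The WT response differed from that of shPax6 by -1.29 (SE 0.14, adjusted p = 9.7e-05) and from that of JNK3 KO by -1.40 (SE 0.14, adjusted p = 4.17e-05). The shPax6 and JNK3 KO responses differed by -0.10 (interval -0.42 to 0.22, adjusted p = 0.666). No other of the 9 genes had a WT response called more negative than both of the others.

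Bipolar and amacrine genes were read beside *Isl1*, since both classes hold *Isl1*-expressing cells. Over all genes 33.8% fell and 26% rose in WT, 11% and 19.1% in shPax6, and 6.1% and 4.33% in JNK3 KO. Of 10 bipolar genes, 7 fell and 2 rose in WT (*Gng13* 2.11 and *Pcp2* 1.60 on the log2 scale). In shPax6 3 bipolar genes fell and 2 rose, and in JNK3 KO 1 fell and 3 rose. The summed FPKM of the 10 bipolar genes was 794 to 800 in WT PBS and 1740 to 1765 in WT NMDA. This rise rested on *Gng13*, from 224.63 and 213.62 to 960.02 and 935.45 FPKM, and *Pcp2*, from 171.71 and 184.54 to 547.64 and 534.85 FPKM. It thus ran against the 7 genes that fell. The median log2 fold change of the 10 bipolar genes was -0.37 in WT, -0.28 in shPax6 and 0.19 in JNK3 KO. *Trpm1*, which fell most in WT, went from 89.01 and 81.74 to 24.28 and 25.56 FPKM there. It went from 42.08 and 44.71 to 50.03 and 46.94 FPKM in shPax6, and from 61.82 and 61.01 to 91.25 and 90.7 FPKM in JNK3 KO. The bipolar sum was 592 to 628 after PBS and 526 to 569 after NMDA in shPax6, and 800 to 839 and 814 to 823 in JNK3 KO. Of 11 tested amacrine genes, 9 fell in WT, 10 in shPax6 and 4 in JNK3 KO. None rose in WT, and 1 (*Sox2*) rose in shPax6 (0.72) and in JNK3 KO (0.90). The amacrine sums were 560 to 573 FPKM in WT PBS, 253 to 263 in WT NMDA, 374 to 383 in shPax6 PBS, 120 to 123 in shPax6 NMDA (*Neurod6* at 0), 551 to 553 in JNK3 KO PBS and 283 to 288 in JNK3 KO NMDA. The part of bipolar and amacrine cells in the *Isl1* values was not tested. Within *Isl1*, the coding transcript Isl1-201 fell in WT from 22.41 and 19.76 to 10.33 and 11.98 FPKM (log2 fold change -0.91, adjusted p = 0.00056). A retained-intron transcript, Isl1-205, fell further, from 3.55 and 3.64 to 0.4 and 0.08 FPKM (-3.62, adjusted p = 0.000989). Over all 49940 transcripts tested, 23.5% fell and 11.7% rose in WT, and 23 of the 44 annotated transcripts of the 10 genes were tested.

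*Isl2* (chr9:55538672-55546180, plus strand), which marks RGCs with contralateral projections, was listed at 2.72 and 3.32 FPKM in WT PBS and 1.0 and 0.97 FPKM in WT NMDA. The shPax6 libraries held 1.37 and 1.99 FPKM after PBS, and after NMDA 1 was listed at 0 and the other at 0.93 FPKM. In JNK3 KO the FPKM were 2.57 and 2.06 after PBS and 0.66 and 0.79 after NMDA. Coding transcripts made up only 32.9% of *Isl2* in WT PBS. Their sums overlapped between PBS and NMDA in shPax6 (0 and 0.87 against 0 and 0.56 FPKM) and in JNK3 KO (2.57 and 0.23 against 0.12 and 0.5 FPKM). At the gene level the groups did not overlap in any background, yet no log2 fold change was called, at -1.52, -2.45 and -1.55 (adjusted p = 0.156, 0.0581 and 0.314). These calls of *Isl2* rested on the shPax6 NMDA libraries. Without replicate 1 or 2 of them the adjusted p was 0.00147 or 0.00157 in WT and 0.0105 or 0.0109 in JNK3 KO.

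*Eomes* (Tbr2) is a T-box factor of a small set of RGCs that includes the intrinsically photosensitive ones, and *Tbr1* of another set. *Eomes* (chr9:118478212-118486132, plus strand) had 3.48 and 3.08 FPKM in WT PBS and 0.55 and 0.66 FPKM in WT NMDA (log2 fold change -2.26, SE 0.52, adjusted p = 0.00415), a call that held in each of 24 other settings. In shPax6 it went from 0.95 and 0.94 FPKM to 0 in 1 library and 0.24 FPKM in the other (-2.50, adjusted p = 0.00609), a call of *Eomes* that was lost with the spread of the shPax6 libraries only (adjusted p = 0.147). In JNK3 KO it went from 2.12 and 2.62 to 0.96 and 0.89 FPKM, with no overlap, at -1.26 and an adjusted p of 0.172 that became 0.00939 without shPax6 NMDA replicate 1 and 0.0097 without replicate 2. The 9 T and NK cell genes, of cells that can also make *Eomes*, summed to 2.8 to 3.71 FPKM in WT PBS, 1.58 to 2.76 FPKM in WT NMDA (*Cd2*, *Cd3d*, *Cd3e*, *Cd3g* and *Klrd1* at 0) and 13.33 to 15.85 FPKM in shPax6 NMDA, where *Eomes* was lowest. *Tbr1* (chr2:61802930-61814114, plus strand) was listed at 0.08 to 0.7 FPKM in every library, with WT PBS at 0.67 and 0.52 and WT NMDA at 0.39 and 0.22 FPKM. In a fit without the filter no *Tbr1* difference was called, the WT response being -0.80 (SE 0.57, adjusted p = 0.484). A change in *Tbr1* was not detectable at these levels.

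*Rbpms* encodes an RNA-binding protein that in the retina labels nearly the whole RGC population. *Rbpms* (chr8:33782643-33929863, minus strand) fell in WT from 16.49 and 17.32 to 4.57 and 7.84 FPKM (log2 fold change -1.48, SE 0.35, adjusted p = 0.00541), and in JNK3 KO from 13.25 and 13.71 to 4.02 and 4.49 FPKM (-1.64, SE 0.35, adjusted p = 0.0203). In shPax6 the PBS libraries, at 3.75 and 4.59 FPKM, were already as low, and lay between the NMDA libraries at 5.59 and 2.46 FPKM (-0.15, interval -0.96 to 0.65). Coding transcripts made up 82.7% of *Rbpms* in shPax6 PBS but 55.3% in shPax6 NMDA. Their sums did not overlap, at 3.75 and 3.15 FPKM after PBS and 2.6 and 1.85 FPKM after NMDA, though the response was not called on them either. The difference between the WT and shPax6 responses of *Rbpms* was -1.33 (SE 0.50, adjusted p = 0.0532), and it was called without WT NMDA replicate 2 or shPax6 NMDA replicate 2 (adjusted p = 0.0314 and 0.00653). The WT fall of *Rbpms* was -1.10 with an adjusted p of 0.0527 without WT NMDA replicate 1, and -0.94 with an adjusted p of 0.0525 once each library's trend on gene length was removed, *Rbpms* being the longest of the 10 genes at 6556 bases. The JNK3 KO call was lost in each fit without 1 JNK3 KO library (adjusted p = 0.109 to 0.137). In WT 33.8% of all genes fell and 26% rose. Of 6 endothelial and pericyte genes, 2 fell (*Kdr* and *Pdgfrb*) and 1 rose (*Cldn5*) in WT. They summed to 62.65 to 64.05 FPKM in WT PBS, 36.07 to 42.03 in WT NMDA, 47.37 to 48.45 in shPax6 PBS, 65.39 to 71.18 in shPax6 NMDA, 59.22 to 62.43 in JNK3 KO PBS and 86.41 to 87.65 in JNK3 KO NMDA, and their part in *Rbpms* was not tested.

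*Sncg*, which encodes γ-synuclein, had the smallest standard error of the 9 tested genes. It has 1 annotated transcript (chr14:34370274-34374789, minus strand). Its FPKM were 127.98 and 144.76 in WT PBS and 112.21 and 115.5 in WT NMDA, no overlap but a log2 fold change of only -0.26 (SE 0.07, adjusted p = 0.00926), a 1.20-fold fall. This small fall was not called without WT PBS replicate 2 (-0.17, adjusted p = 0.067) or with the spread taken from the WT libraries only (adjusted p = 0.0613). In shPax6 it fell 6.29-fold, from 48.32 and 49.81 to 7.78 and 7.64 FPKM (-2.65, SE 0.07, adjusted p = 6.39e-08). In JNK3 KO it fell 4.46-fold, from 135.04 and 129.55 to 29.45 and 29.72 FPKM (-2.16, SE 0.07, adjusted p = 7.08e-07). The WT response of *Sncg* was thus smaller than that of shPax6 by 2.40 (SE 0.10, adjusted p = 8.32e-07) and than that of JNK3 KO by 1.90 (SE 0.10, adjusted p = 9.71e-07). The shPax6 fall was also larger than that of JNK3 KO, with a difference of -0.50 (SE 0.10, adjusted p = 0.00865).

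Gene length moved with these values. Across all genes with a length, the log2 fold change after NMDA fell with spliced length in WT (Spearman's rho -0.45 over 16443 genes, which are not independent replicates), against rho of -0.11 in shPax6 and 0.20 in JNK3 KO. Its median in WT, across all tested genes of a length, was 0.44 under 1 kb, 0.84 at 1 to 2 kb, 0.23 at 2 to 4 kb and -0.61 over 4 kb. The differences of the WT response from shPax6 and from JNK3 KO fell with length too (rho -0.35 and -0.46). *Sncg*, in the shortest class, is the shortest of the 10 genes at 852 bases, and the other 9 measure 2193 to 6556 bases. Of the tested genes, *Pou4f1* (4672 bases), *Eomes* (4155 bases) and *Rbpms* are in the class over 4 kb, whose WT median was itself negative. After the trend of each library on length was removed, the WT response of *Sncg* was -1.15 (adjusted p = 2.69e-06), and it differed from the shPax6 response by 1.75 and from the JNK3 KO response by 0.88 (adjusted p = 5.72e-06 and 0.000189). On TPM the WT response was -0.83 (adjusted p = 3.14e-06), TPM shifting the median of all genes in WT from -0.09 to -0.66. *Sncg* kept its direction in each scaling, and the differences from both other backgrounds were smaller, but still called, after the length correction.

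**Figure D3:**
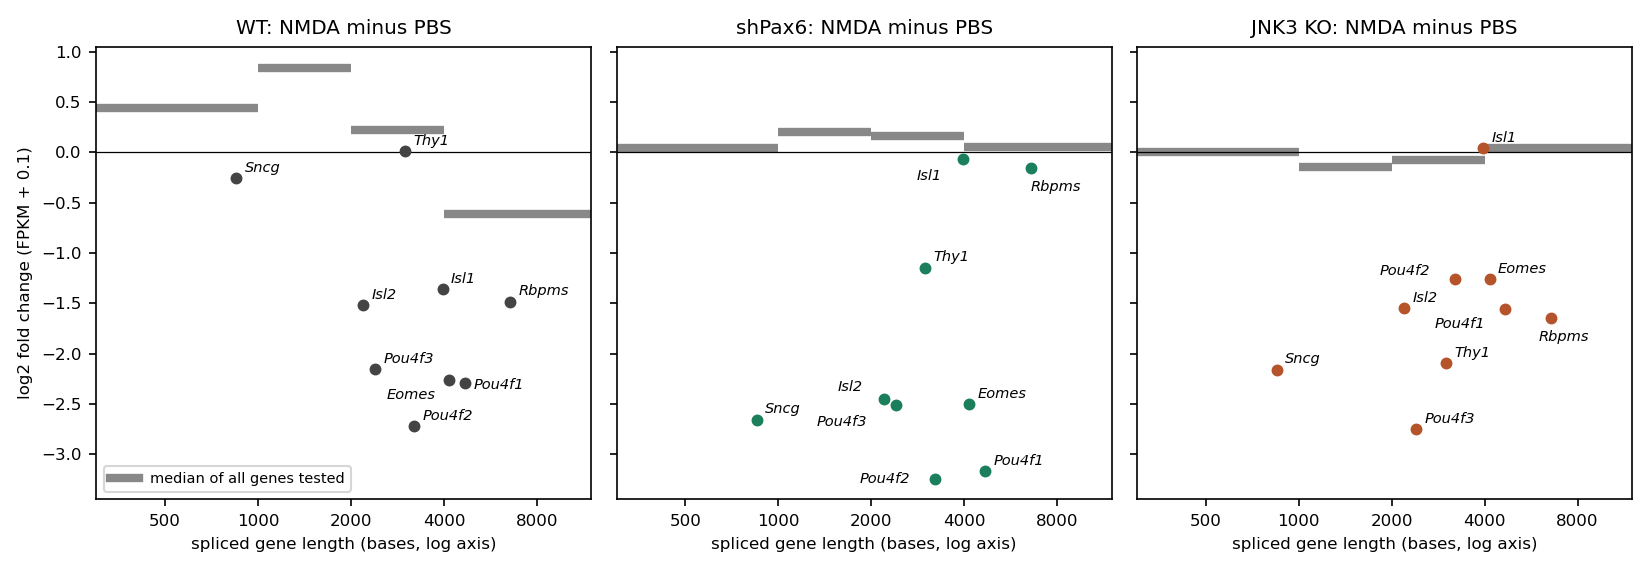
Log2 fold change (FPKM + 0.1), NMDA minus PBS, against spliced gene length in bases on a log axis, for the 9 tested genes (points) in WT, shPax6 and JNK3 KO; grey bars are the median of all tested genes under 1 kb, of 1 to 2 kb, of 2 to 4 kb and over 4 kb. The grey medians are 0.44 (under 1 kb), 0.84 (1 to 2 kb), 0.23 (2 to 4 kb) and -0.61 (over 4 kb) in WT and lie between -0.15 and 0.20 in the other backgrounds, and *Sncg* and *Thy1* sit far higher in WT than elsewhere.

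*Thy1* (chr9:44043384-44048579, plus strand) encodes a GPI-anchored surface protein of neurons that is widely used to label RGCs. Its gene-level FPKM were 142.02 and 144.87 in WT PBS and 135.95 and 153.62 in WT NMDA. The groups overlapped and the log2 fold change was 0.01 (SE 0.09, interval -0.20 to 0.22), but TPM turned it to -0.56 (adjusted p = 0.000306) and quantile normalization to -0.66 (adjusted p = 9.48e-05). In shPax6 *Thy1* fell from 43.44 and 41.11 to 19.89 and 18.27 FPKM (-1.14, SE 0.09, adjusted p = 3.26e-05), and in JNK3 KO from 181.42 and 151.78 to 38.57 and 39.01 FPKM (-2.09, SE 0.09, adjusted p = 7.61e-06). At the gene level the WT response of *Thy1* differed from shPax6 by 1.16 (adjusted p = 0.000127) and from JNK3 KO by 2.10 (adjusted p = 2.77e-06).

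The transcript table split *Thy1* in another way. Thy1-201, the full coding transcript of 1735 bases, fell in WT from 115.26 and 118.02 to 46.14 and 34.83 FPKM, which is -1.54 on the log2 scale (SE 0.13, adjusted p = 4.94e-05). Thy1-203, a processed transcript of 449 bases whose exons all lie within the 3′ UTR of Thy1-201 (chr9:44047452-44048579), rose from 11.15 and 16.95 to 87.47 and 117.43 FPKM (2.87, SE 0.95, adjusted p = 0.0469). In these estimates the unmoved gene value in WT was the sum of a coding transcript listed lower and a 3′ UTR transcript listed higher. Whether Thy1-203 itself rose, apart from fragments of the Thy1-201 3′ UTR, was not tested. In the other backgrounds Thy1-203 was at 4.7 and 4.63 FPKM in shPax6 PBS, 10.85 and 3.21 in shPax6 NMDA, 52.67 and 21.88 in JNK3 KO PBS, and 0 and 0.7 in JNK3 KO NMDA. Coding transcripts made up 90.0% of *Thy1* in WT PBS but 29.2% in WT NMDA, 63.1% in shPax6 NMDA and 98.9% in JNK3 KO NMDA.

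When the coding transcripts of *Thy1* were summed, their FPKM were 130.73 and 127.38 in WT PBS against 48.48 and 36.07 in WT NMDA, 38.74 and 36.16 in shPax6 PBS against 9.04 and 15.05 in shPax6 NMDA, and 128.41 and 129.2 in JNK3 KO PBS against 38.41 and 38.3 in JNK3 KO NMDA. Coding *Thy1* thus fell in all 3 backgrounds, by -1.62, -1.67 and -1.75 on the log2 scale (adjusted p = 8.5e-05, 0.000293 and 0.00092). The 3 responses of coding *Thy1* differed by 0.05 between WT and shPax6, by 0.12 between WT and JNK3 KO and by 0.07 between shPax6 and JNK3 KO (adjusted p = 0.895, 0.744 and 0.89). None of these was called, whereas all 3 differences were called at the gene level. For Thy1-201 by itself the difference was 0.43 between WT and shPax6 (95% interval 0.02 to 0.84), 0.26 between WT and JNK3 KO (-0.15 to 0.67) and -0.17 between shPax6 and JNK3 KO (-0.59 to 0.24), none of them called (adjusted p = 0.124, 0.346 and 0.684). RSEM divides fragments that fit both transcripts between them, so the split is an estimate.

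**Figure D4:**
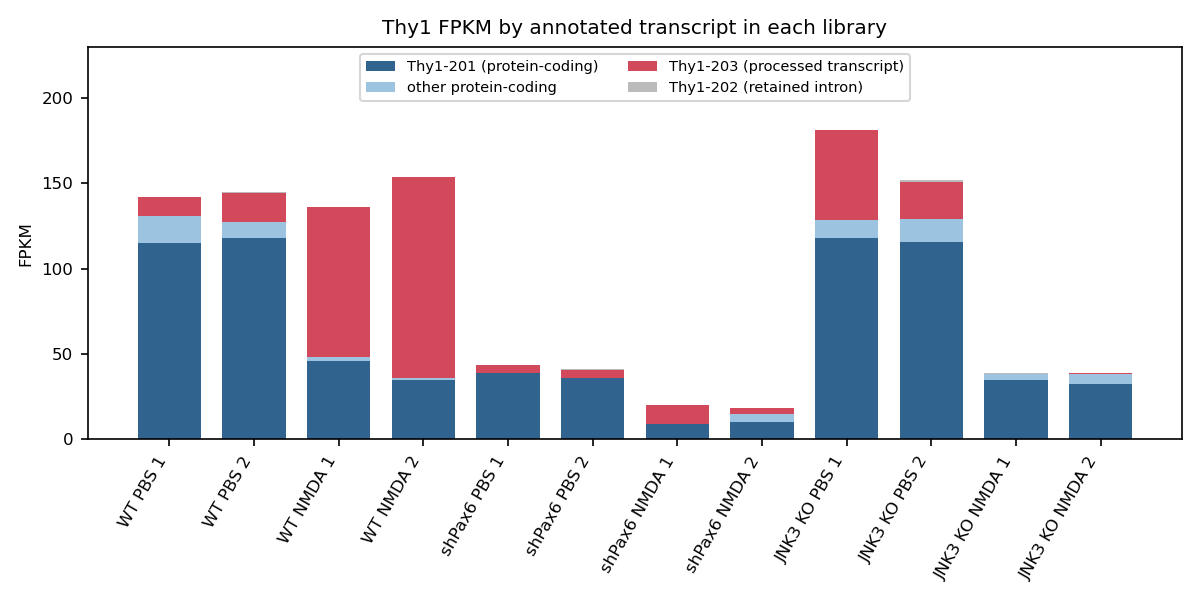
FPKM of *Thy1* by annotated transcript in the 12 libraries, stacked from 0, with coding transcripts in blue and the processed transcript Thy1-203 in red. The whole bars of the WT PBS and WT NMDA libraries are about level at 136 to 154 FPKM, but the coding transcript drops to 46.1 and 34.8 FPKM in WT NMDA, where Thy1-203 reaches 87.5 and 117 FPKM.

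The PBS libraries were compared between backgrounds to ask whether the RGC genes differed before NMDA. All 10 genes had both shPax6 PBS libraries below both WT PBS libraries, as did 35.1% of all tested genes. Of the 9 tested, 4 were called lower and none higher, against 11.2% lower and 5.36% higher among all genes (8.85% and 7.89% after the length correction). *Rbpms* was 4.00-fold lower (log2 fold change -2.0, SE 0.35, adjusted p = 0.00531), *Thy1* 3.39-fold (-1.76, SE 0.09, adjusted p = 9.31e-06), *Sncg* 2.77-fold (-1.47, SE 0.07, adjusted p = 4.94e-06) and *Isl1* 1.45-fold (-0.54, SE 0.10, adjusted p = 0.00687). The 3 broad RGC markers were thus lower in shPax6 retinas without NMDA. *Eomes* (-1.69, adjusted p = 0.0559) and *Pou4f1* (-1.53, adjusted p = 0.153) missed the threshold, and both passed it with a pseudocount of 1 (adjusted p = 0.00311 and 0.0155) and without either shPax6 NMDA library (0.00193 and 0.00202 for *Eomes*, 0.0213 and 0.0207 for *Pou4f1*). *Pou4f2* was at -0.64 (interval -2.23 to 0.94). The *Rbpms* call was lost without WT PBS replicate 2 (adjusted p = 0.0521) and the *Isl1* call without WT PBS replicate 1 (adjusted p = 0.0588).

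Other cell types differed as well between these PBS groups. All 8 rod genes were higher in shPax6 PBS, with a median log2 difference of 0.48 and sums of 34077 to 36979 FPKM against 25845 to 25966 FPKM in WT PBS. All 6 cone genes were higher too (median 0.84), with sums of 1028 to 1126 FPKM against 523 to 552 FPKM. Of 10 bipolar genes 5 were called lower and none higher, against 11.2% and 5.36% of all genes. Their median was -0.47, with sums of 592 to 628 FPKM against 794 to 800 FPKM in WT PBS. *Isl1*, which ON bipolar cells also make, was at -0.54 in this comparison. The summed amacrine genes were 374 to 383 FPKM in shPax6 PBS. Of 6 neutrophil genes 5 were lower (median -3.76, *Ly6g* not called and at 0 in shPax6 PBS), with sums of 3.83 to 3.89 FPKM against 194 to 217 FPKM in WT PBS. Of 8 microglia and macrophage genes 2 were higher (*C1qa* and *Tmem119*) and 2 lower (*Itgam* and *Cd68*). Their sum, 85.2 to 91.3 FPKM against 42.6 to 46.5 FPKM, rested on *C1qa*, at 57.06 and 50.78 FPKM against 11.51 and 12.47 FPKM, while *Itgam* was at 3.5 and 4.07 FPKM against 8.52 and 8.9 FPKM. FPKM are shares of a library, and the part of these shifts in the RGC values was not tested. In JNK3 KO PBS retinas 5 of the 10 genes had both libraries below both WT PBS libraries (*Pou4f2*, *Isl1*, *Isl2*, *Eomes* and *Rbpms*) and *Thy1* had both above, against 26.7% and 27% of all tested genes. None of the 9 genes was called by limma, at 0.407% lower and 1.1% higher among all genes (0.552% and 0.261% after quantile normalization), and at an unadjusted p under 0.05 *Isl1* passed, at -0.34 (adjusted p = 0.152 from limma). The 95% intervals were narrow for *Sncg* (-0.20 to 0.11) and *Thy1* (-0.0023 to 0.42) and wide for *Pou4f1* (-1.40 to 1.54). Of the 8 rod genes 6 were called higher in JNK3 KO PBS (median 0.25), and their part in these values was not tested.

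**Figure D5:**
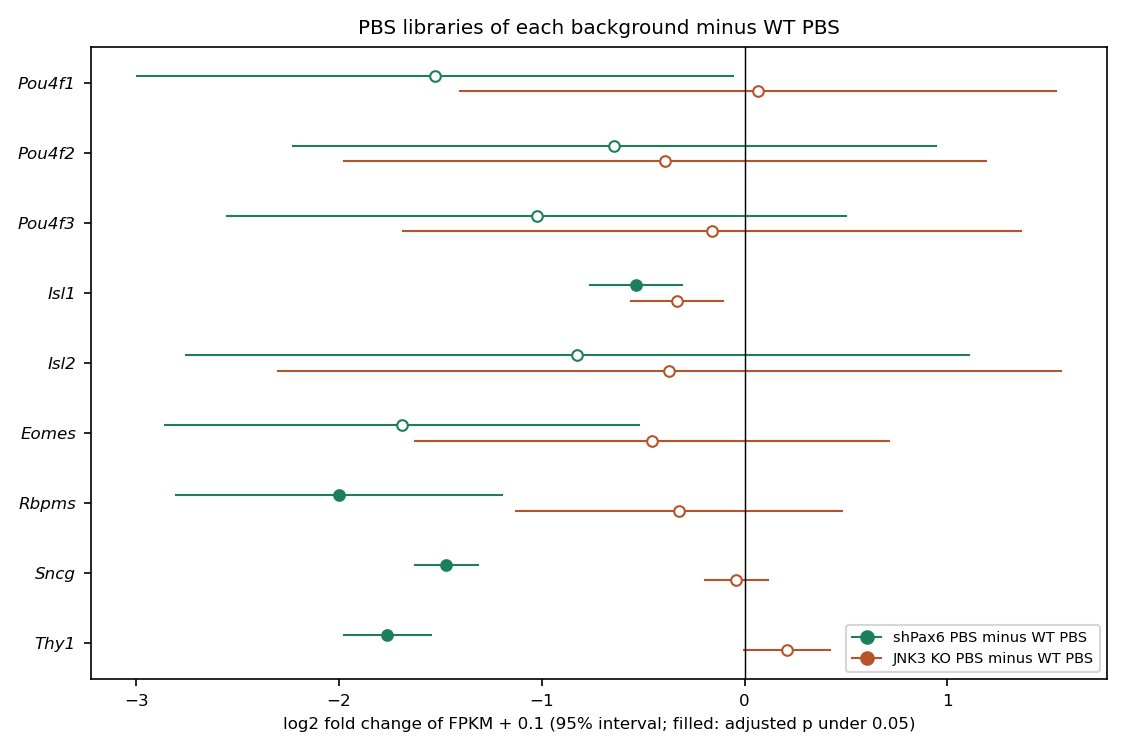
Log2 fold change of FPKM + 0.1 between PBS libraries, shPax6 minus WT and JNK3 KO minus WT, for the 9 tested genes; points are limma estimates, lines 95% intervals, and filled points have an adjusted p under 0.05. Every shPax6 point lies below 0, from -0.54 for *Isl1* to -2.0 for *Rbpms*, and the JNK3 KO points lie between -0.46 and 0.21.

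After NMDA the groups were also set against each other directly. In shPax6 NMDA retinas 4 of the 9 genes were lower and 1 higher than in WT NMDA retinas, against 26.6% and 34.4% of all genes (15.3% and 49.8% on TPM). The count of lower genes was 7 without shPax6 NMDA replicate 1, and the call of *Pou4f1* was lost without WT NMDA replicate 1 (adjusted p = 0.0784). *Sncg* was 14.6-fold lower (log2 fold change -3.87, SE 0.07, adjusted p = 1.56e-08), *Thy1* 7.55-fold (-2.92, SE 0.09, adjusted p = 5.8e-08), *Pou4f1* 5.29-fold (-2.40, SE 0.65, adjusted p = 0.0101) and *Eomes* 3.81-fold (-1.93, SE 0.52, adjusted p = 0.00966). On coding transcripts *Thy1* was at -1.83 (adjusted p = 4.22e-05). The sizes for *Pou4f1* and *Eomes* hung on single shPax6 NMDA libraries, *Pou4f1* going to -3.61 without replicate 1 and -1.20 without replicate 2, and *Eomes* to -1.05 and -2.81. *Isl1* was the higher one, 1.69-fold (0.76, SE 0.10, adjusted p = 0.000159), and it was not called on coding transcripts (0.26, adjusted p = 0.0921). In JNK3 KO NMDA retinas 2 were lower and 1 higher than in WT NMDA, against 27.1% and 32.2% of all genes (14.6% and 47.6% on TPM), and 2 were higher without either shPax6 NMDA library. *Sncg* was 3.84-fold lower (-1.94, SE 0.07, adjusted p = 8.04e-08) and *Thy1* 3.72-fold lower (-1.89, SE 0.09, adjusted p = 3.72e-07), but coding *Thy1* was at -0.12 (adjusted p = 0.615). Gene length moved with these direct differences too. Spearman's rho over all genes with a length was 0.37 for shPax6 NMDA and 0.45 for JNK3 KO NMDA against WT NMDA. The medians under 1 kb were -0.41 and -0.49. For *Sncg*, at 852 bases, the 24 other settings gave -3.89 to -3.13 for shPax6 NMDA and -1.96 to -1.04 for JNK3 KO NMDA. *Isl1* was 2.09-fold higher (1.06, SE 0.10, adjusted p = 1.7e-05). Of the 10 genes, 5 had both JNK3 KO NMDA libraries above both WT NMDA libraries and 4 (*Isl2*, *Rbpms*, *Sncg* and *Thy1*) had both below, against 42.9% and 38.6% of all tested genes. Beside *Isl1* those above were *Tbr1* and 3 tested genes with no call (*Pou4f1* 0.80, *Pou4f2* 1.07 and *Eomes* 0.54 on the log2 scale, adjusted p = 0.321, 0.219 and 0.396). On coding transcripts *Pou4f1* lay the other way, at -0.38 (adjusted p = 0.333). *Eomes* was called higher in JNK3 KO NMDA without shPax6 NMDA replicate 1 or 2 (adjusted p = 0.0433 and 0.0448).

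As a share of the WT PBS mean, *Sncg* and *Thy1* stood at 83.5% and 100.9% in WT NMDA, 5.65% and 13.3% in shPax6 NMDA and 21.7% and 27.0% in JNK3 KO NMDA. *Pou4f1* stood at 20.6%, 4.42% and 35.2% and *Eomes* at 18.45%, 3.66% and 28.2% in the same groups. *Rbpms* was at 36.7%, 23.8% and 25.2%. The shPax6 NMDA group had the lowest mean share for each of these 5 genes, though its gene-level *Rbpms* libraries overlapped those of JNK3 KO NMDA. On coding transcripts *Rbpms* did not overlap, at 2.6 and 1.85 FPKM against 4.03 and 3.77 FPKM. Before NMDA the shPax6 shares were already low, at 36.0% for *Sncg*, 29.5% for *Thy1*, 34.8% for *Pou4f1*, 28.8% for *Eomes* and 24.7% for *Rbpms*. *Sncg* kept a larger share in WT NMDA than in JNK3 KO NMDA, as did *Thy1* at the gene level but not on coding transcripts, where the libraries overlapped (48.48 and 36.07 FPKM against 38.41 and 38.3 FPKM), and *Pou4f1* and *Eomes* a smaller one, which for *Pou4f1* and *Eomes* was not called (above).

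Other genes enriched in RGCs were taken from a list of 15, of which 14 were tested. In WT 12 fell and 1 rose (*Stmn2*, a microtubule regulator of neurons, 0.62), where 33.8% of all genes fell and 26% rose, with a median log2 fold change of -2.15 against -0.09 over all genes. In shPax6 11 fell, against 11% of all genes (median -1.74 against 0.10), and in JNK3 KO 9 fell, against 6.1% (median -1.14 against -0.01). In PBS libraries 9 of the 14 were lower in shPax6 than in WT, against 11.2% of all genes (median -1.32 against -0.06), and none was called in JNK3 KO. *Nefl*, the light neurofilament chain of axons, fell from 162.46 and 160.25 to 27.66 and 25.52 FPKM in WT (-2.60, SE 0.08, adjusted p = 3.24e-08), from 40.54 and 35.34 to 7.56 and 7.73 FPKM in shPax6 (-2.29, adjusted p = 2.43e-07) and from 140.69 and 138.47 to 32.58 and 32.34 FPKM in JNK3 KO (-2.10, adjusted p = 1.97e-06). *Slc17a6*, the vesicular glutamate transporter of RGCs, fell from 21.51 and 20.61 to 2.34 and 2.91 FPKM in WT (-2.96, SE 0.73, adjusted p = 0.00621). The fall of *Nefl* was larger in WT, by a difference of -0.30 from shPax6 and -0.50 from JNK3 KO (adjusted p = 0.0423 and 0.00403). *Nefl* was named for its large WT response, so these tests favour such a difference and lend it no support. The *Nefl* differences were opposite in sign to those of *Sncg* and gene-level *Thy1*. Of the 14 genes, 4 were called more negative and 3 less negative in WT than in shPax6, and 5 and 2 than in JNK3 KO. Over all genes the median difference was -0.28 from shPax6 and -0.03 from JNK3 KO. Of all genes, 31.4% and 27.9% were called more negative in WT and 18.3% and 23.5% less negative. The *Nefl* difference from shPax6 was thus near that of the median gene.

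Of a second list of 15 genes, which mark RGC subsets, 12 were tested. In WT 4 fell (*Satb1*, *Mmp17*, *Jam2* and *Cartpt*) and 2 rose (*Spp1* and *Kcng4*), against 33.8% and 26% of all genes, with a median of -0.19. In shPax6 3 fell (*Neurod2*, *Cartpt* and *Mmp17*) and the same 2 rose, against 11% and 19.1% (median -0.32), and in JNK3 KO 3 fell (*Cartpt*, *Mmp17* and *Cd83*) and *Spp1* rose, against 6.1% and 4.33% (median -0.31). *Satb1*, a chromatin organizer found in direction-selective RGCs, fell in WT from 6.51 and 6.24 to 1.08 and 2.01 FPKM (-2.04, SE 0.27, adjusted p = 0.00016), and was 7.67 and 6.57 FPKM in shPax6 PBS and 5.38 and 7.44 FPKM in shPax6 NMDA. *Mmp17* fell in WT from 4.0 and 3.65 to 2.07 and 1.3 FPKM (-1.17, SE 0.27, adjusted p = 0.00446). *Spp1*, which marks alpha RGCs but is also a strong product of activated microglia and macrophages, rose from 25.1 and 27.01 to 71.27 and 66.09 FPKM in WT and from 10.9 and 12.36 to 167.6 and 178.37 FPKM in shPax6 (log2 fold changes 1.39 and 3.89, adjusted p = 1.36e-06 and 3.53e-08). The 8 microglia and macrophage genes summed to 294 to 295 FPKM in shPax6 NMDA, 172 and 165 FPKM of it *C1qa*, and their part in *Spp1* was not tested.

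The 9 tested genes were not equally alike across libraries. Each gene's log2(FPKM + 0.1) was set against the mean z-score of the other 8 over the 12 libraries, which share their groups, so Pearson's r is a description. It was 0.915 for *Eomes*, 0.909 for *Pou4f1*, 0.865 for *Pou4f3*, 0.839 for *Sncg* and 0.836 for *Pou4f2*, and lowest for *Isl1*, at 0.370. The closest pair was *Sncg* and *Thy1* (r = 0.962) and the most distant *Isl1* and *Thy1* (r = -0.05). Outside the set, the genes closest to the mean z-score of the 9 included *Nefm*, *Nefl*, *Tmem130*, *Scrt1*, *Nptxr*, *Rtn1*, *Nell2*, *Chst1* and *Rgs4*, with r from 0.993 to 0.980. *Nefm*, the medium neurofilament chain and the closest, was at 51.29 and 54.15 FPKM in WT PBS, 11.69 and 10.5 in WT NMDA, 11.83 and 15.18 in shPax6 PBS, 2.3 and 1.97 in shPax6 NMDA, 48.72 and 47.12 in JNK3 KO PBS and 11.45 and 12 in JNK3 KO NMDA.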

How the data were processed

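Libraries were made from poly(A) RNA with a TruSeq kit. Per the labels and methods, reads were aligned with STAR 2.7.1a to GRCm38.p6 and quantified with RSEM 1.3.3, and the authors deposited gene and transcript tables of FPKM for all 12 libraries. The authors tested their own comparisons with edgeR 3.36.0 in R 4.1.0 (not used here). RSEM shares ambiguous fragments between overlapping transcripts. Read counts and depth were not recovered, so no counting interval is given, and counting error alone cannot be separated from replicate spread. FPKM are shares of a library, so a change in abundant genes moves the rest.

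From the deposited values, log2(FPKM + 0.1) was fitted with limma 3.58.1 (lmFit, eBayes with trend, R 4.3.3, the data.table package, version 1.17.8) as 6 group means with 6 residual degrees of freedom, over genes whose mean was over 1 FPKM in 1 or more groups. In all, 10 comparisons were read from this fit, and calls used a Benjamini-Hochberg adjusted p under 0.05 over all genes tested, with no fold limit. Replicates were not merged, as paired libraries of a group differed by a median of 0.112 to 0.252 on the log2 scale. With 2 libraries a group, an exact permutation test cannot reach this threshold and was not used. The fit was tested on simulated data before use.

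Named genes were the 10 identity genes, the 3 genes with the largest WT response among those called in each RGC list, marker-list genes where a result needed them, and the 10 other genes with the highest Pearson's r to the mean z-score of the tested identity genes. *Stmn2* and the remaining list genes behind counts of 5 or fewer were named after their values were seen. Some genes that this rule selects are not reported here. The identity genes, lists and tests were chosen with earlier results of these data known.

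Alternatives were a pseudocount of 0.5 or 1, testing every gene, filtering genes by their mean over the 12 libraries, rescaling (TPM, 75th percentile, quantile), a lowess correction on gene length (span 0.3), the spread of the compared groups only, no intensity trend, a replicate block, an unadjusted p under 0.05 with a log2 change over 1, and leaving out each library. The sum over protein-coding transcripts was added after seeing the data. The block was checked through the correlation of deviations from group means between same-numbered libraries, which lay between -0.0973 and 0.0858 in 15 pairs of groups, with 0 above 0.1, so the numbers were not taken to pair the libraries. Gene lengths and transcript types came from GENCODE M21 (99.38% of gene and 99.07% of transcript IDs matched), and promoter sequences from RefSeq on GRCm38.p6. Figures were drawn with matplotlib 3.10.9 in Python 3.11.15 with pandas 2.3.3.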

Additional observations from a re-analysis of the deposited data

Results flagged for a closer look

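For 3 of the 9 tested identity genes the NMDA response differed between backgrounds by the interaction term of the limma fit. Among all genes tested, 31.4% responded more negatively and 18.3% less negatively in WT than in shPax6. For WT against JNK3 KO the shares were 27.9% and 23.5%, and for shPax6 against JNK3 KO 5.62% and 12.1%. *Isl1* responded more negatively in WT than in shPax6 (a log2 difference of -1.29, SE 0.14, adjusted p = 9.7e-05) and than in JNK3 KO (-1.40, SE 0.14, adjusted p = 4.17e-05). *Sncg* responded less negatively in WT than in shPax6 (2.40, SE 0.10, adjusted p = 8.32e-07) and JNK3 KO (1.90, SE 0.10, adjusted p = 9.71e-07), and more negatively in shPax6 than in JNK3 KO (-0.50, SE 0.10, adjusted p = 0.00865). *Thy1* responded less negatively in WT than in shPax6 (1.16, SE 0.13, adjusted p = 0.000127) and JNK3 KO (2.10, SE 0.13, adjusted p = 2.77e-06), and less negatively in shPax6 than in JNK3 KO (0.95, SE 0.13, adjusted p = 0.00173). After the length correction the *Sncg* differences of WT were smaller, at 1.75 from shPax6 and 0.88 from JNK3 KO. On coding transcripts no *Thy1* difference was called. No test of outlying libraries applies to groups of 2.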

How the results depend on the processing

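Among alternative counts of called genes, 464 stayed within 1.5 times the reported count and 36 did not, and among alternative values of single genes 1975 kept direction and side of the threshold, 52 changed sign without being called in either fit, 53 lost a call, 67 gained one and 3 reversed with a call. The 3 reversals with a call were all *Thy1* in WT, at -0.56 on TPM, -0.66 after quantile normalization and -1.62 on coding transcripts. With no filter, identity genes called lower numbered 3 in WT, 2 in shPax6, 2 in JNK3 KO and 2 in shPax6 NMDA against WT NMDA. Of all 55487 genes in that fit, 8.61%, 2.07%, 0.793% and 6.09% were called lower in these comparisons. With the spread of the compared groups only, identity genes called lower were 2 in shPax6, 2 in shPax6 NMDA against WT NMDA and 2 for WT against JNK3 KO responses. The shares of all genes called lower there were 1.83%, 19.4% and 31.0%. For WT against shPax6 responses 2 identity genes were more negative in WT with a pseudocount of 1 or 0.5, the filter on the mean, TPM and the fold rule. Of all genes, 31.2%, 31.3%, 33.8% and 47.2% were more negative in these settings, the fold rule aside. The fold rule left 0 higher in shPax6 NMDA than in WT NMDA and 0 for shPax6 against JNK3 KO responses. On coding transcripts 0 were higher in shPax6 NMDA and 1 lower in JNK3 KO NMDA than in WT NMDA, 1 responded less negatively in WT than in JNK3 KO, and 2 more negatively in shPax6 than in JNK3 KO.

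Leaving out each library in turn gave 4 to 8 genes lower in WT, 5 to 6 in shPax6, 2 to 7 in JNK3 KO, and 3 to 6 in shPax6 PBS. It gave 4 to 7 lower and 1 to 1 higher in shPax6 NMDA against WT NMDA, and 2 to 2 lower and 1 to 2 higher in JNK3 KO NMDA. For the differences between responses it gave 1 to 2 and 2 to 4 for WT against shPax6, 1 to 2 and 2 to 2 for WT against JNK3 KO, and 1 to 3 and 1 to 2 for shPax6 against JNK3 KO. Such a fit assumes that the lone library varies like the other groups. The shares of all genes called in these fits, under the fold rule and on coding transcripts are not given here. Those counts alone therefore cannot be set against all genes. The replicate block left every count as it was (7 in WT, 6 in shPax6 and 4 in JNK3 KO) and changed no call of a single gene. The causes were not tested. Values under about 0.1 FPKM and 2 libraries a group limit what can be said of *Tbr1*, *Pou4f2*, *Pou4f3*, *Isl2* and *Eomes*.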
